A study of Homo sapiens with 6 samples.

Results

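Cholesterol synthesis and SREBP genes were examined in Rh30, an alveolar rhabdomyosarcoma line that carries the PAX3-FOXO1 fusion. The set comprised 32 genes taken by symbol, of 35580 genes joined in the tables. Control cells, for which the labels give no treatment beyond that word, were set against cells labelled siDDX5, in which the RNA helicase DDX5 had been knocked down. There were 3 bulk mRNA libraries per group, all from this 1 line and labelled as biological replicates 1 to 3. The labels do not say whether these were separate cultures, so p-values measure only the spread between these libraries.

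Cells make cholesterol from acetyl-CoA by way of mevalonate, farnesyl diphosphate, squalene and lanosterol. Transcription of the enzymes is driven by SREBP2, the product of SREBF2, and transcription of fatty acid enzymes mainly by SREBP1, the product of SREBF1. When membrane sterol is low, SCAP escorts the SREBP precursors from the endoplasmic reticulum to the Golgi, where proteases release the active factor. When sterol is high, INSIG1 and INSIG2 hold SCAP and its cargo in the endoplasmic reticulum.

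SREBPs bind a sterol element beside sites for the general factors NF-Y and Sp1. Upstream sequence is shown for MSMO1 and INSIG1, the genes that rose once replicate number was accounted for, and for SREBF2, the only matched gene of the set with the sterol element searched for. The letters are from RefSeq on GRCh38.p14, 5′ to 3′ on the plus strand, and end before the first annotated base of the gene. Capitals mark TCACNCCAC (sterol element), CCAAT (NF-Y box), GGGCGG (Sp1 box) and CACGTG (E-box), on either strand.
MSMO1, chr4:165327419-165327622: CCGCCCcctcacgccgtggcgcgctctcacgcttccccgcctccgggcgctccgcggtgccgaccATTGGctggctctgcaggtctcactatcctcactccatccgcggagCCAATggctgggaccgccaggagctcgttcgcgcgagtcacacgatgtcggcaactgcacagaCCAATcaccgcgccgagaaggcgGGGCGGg
INSIG1, chr7:155297628-155297775: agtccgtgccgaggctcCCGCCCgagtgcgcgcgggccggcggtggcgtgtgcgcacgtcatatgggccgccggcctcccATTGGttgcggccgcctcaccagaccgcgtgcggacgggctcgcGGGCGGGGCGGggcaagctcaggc
SREBF2, chr22:41832855-41833078: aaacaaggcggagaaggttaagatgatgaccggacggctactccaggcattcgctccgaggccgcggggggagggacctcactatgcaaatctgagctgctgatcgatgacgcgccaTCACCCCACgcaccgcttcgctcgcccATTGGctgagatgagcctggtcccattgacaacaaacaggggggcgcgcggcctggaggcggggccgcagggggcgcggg

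The motifs were counted in the 250 bases before each RefSeq start, for 28 of the 32 genes and 38 start sites. CCAAT was found in 63.2% of these 38 windows, against 32% of all 35116 windows and 32.7% of the 22198 windows of protein-coding genes. GGGCGG was found in 92.1%, against 42.6% of all windows and 53.7% of those of protein-coding genes. For the E-box CACGTG the share was 13.2%, against 6.34% and 7.37%. TCACNCCAC occurred in 1 window, that of SREBF2, and in 0.883% of all windows. Only this string was searched for, so a sterol element with other letters would be missed. The MSMO1 window held 4 CCAAT matches, of which 3 lie in the stretch printed. At least 4 such matches were found in 0.874% of all windows and 1.03% of those of protein-coding genes. Within the set they were found in 3 of the 38 windows, those of MSMO1, MVK and NSDHL. This cut equals the count of MSMO1 itself, so these shares are no test of MSMO1. GGGCGG matches in INSIG1 overlap each other in GGGCGGGGCGG. The INSIG1 window held 5 GGGCGG matches, of which 3 lie in the stretch printed, and 1 CACGTG match outside it. The 2 GGGCGG matches of the SREBF2 window also lie outside the stretch printed. A match describes the letters and not a bound site, and overlapping windows of 1 gene were counted separately.

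Library totals ran from 18202402 to 26156858 estimated counts, and 3 counts corresponded to 0.115 to 0.165 CPM (counts scaled to a common library total, TMM-normalised). DDX5 was 1137 to 1434 CPM in the controls and 396 to 549 CPM in siDDX5 cells (log2 fold change -1.44, SE 0.15, edgeR adjusted p 0.0106). All 7 muscle lineage markers examined (MYOD1, MYOG, MYF5, DES, CDH15, MYH3 and CHRNA1) passed the filter and none was called between the groups. Their summed level was 1118 to 1571 CPM in the controls and 1161 to 1278 CPM in siDDX5 cells. Of 8 markers of other cell types, ALB was at 0 in all control libraries and at most 0.055 CPM in siDDX5 cells, and EPCAM and CDH5 were at most 0.247 CPM. The other 5 passed the filter, with KRT8 at 0.866 to 1.82 CPM, PTPRC at 0.541 to 2.31 CPM, CD68 at 8.99 to 14.5 CPM, PECAM1 at 10.3 to 14.8 CPM and COL1A1 at 15.7 to 21.5 CPM. None was called between the groups, and PTPRC was lower in all 3 pairs (log2 fold change -0.69, SE 0.40, edgeR adjusted p 0.547). Both replicate 3 libraries stood apart from the other 4 on the first principal component (scores 0.54 and 0.55, against -0.50 to -0.06), which bears on several genes below.

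The first comparison asked whether the pathway differed between siDDX5 and control cells. On the CPM scale, MSMO1 and INSIG1 were about 1.5 times as high in siDDX5 cells in each of the 3 same-numbered pairs. Most of the other genes lay close to their control level. Without a term for replicate number, 0 of the 31 genes tested had an adjusted p under 0.05, against 0.164% of the 15223 genes tested. At an unadjusted p under 0.05 there were 4 of 31 (12.9%, background 11.4%), namely HMGCS1, MSMO1 and NPC2 with higher and SCAP with lower values. With replicate number as a block, MSMO1 and INSIG1 passed, so that 2 of 31 (6.45%) were called, both higher, against 2.59% of all genes in either direction and 1.14% higher. DESeq2's Wald test without the block called MSMO1 alone, where 2.73% of genes were called. Because the libraries are bulk RNA, fewer cells expressing a gene and less RNA per cell cannot be told apart.

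The median log2 fold change of the 31 genes was -0.032, against -0.002 over all genes tested. Values ran from -0.34 for FASN to 0.62 for MSMO1, 21 of the 31 were within 0.2 of 0, and the median standard error was 0.13. Positive values were found in 12 genes and negative values in 19 (38.7% positive, against 49.6% of all genes). In 7 genes (22.6%, background 18.0%) the groups did not overlap. HMGCS1, MSMO1 and NPC2 lay higher in every siDDX5 library, and MVD, FDPS, LSS and SCAP lay lower. All 3 same-numbered pairs pointed one way in 19 genes (61.3%, background 42.9%), 7 higher and 12 lower under siDDX5. Of these 19, only MSMO1 and INSIG1 were called in the blocked fit and none in the unblocked fit.

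**Figure D1:**
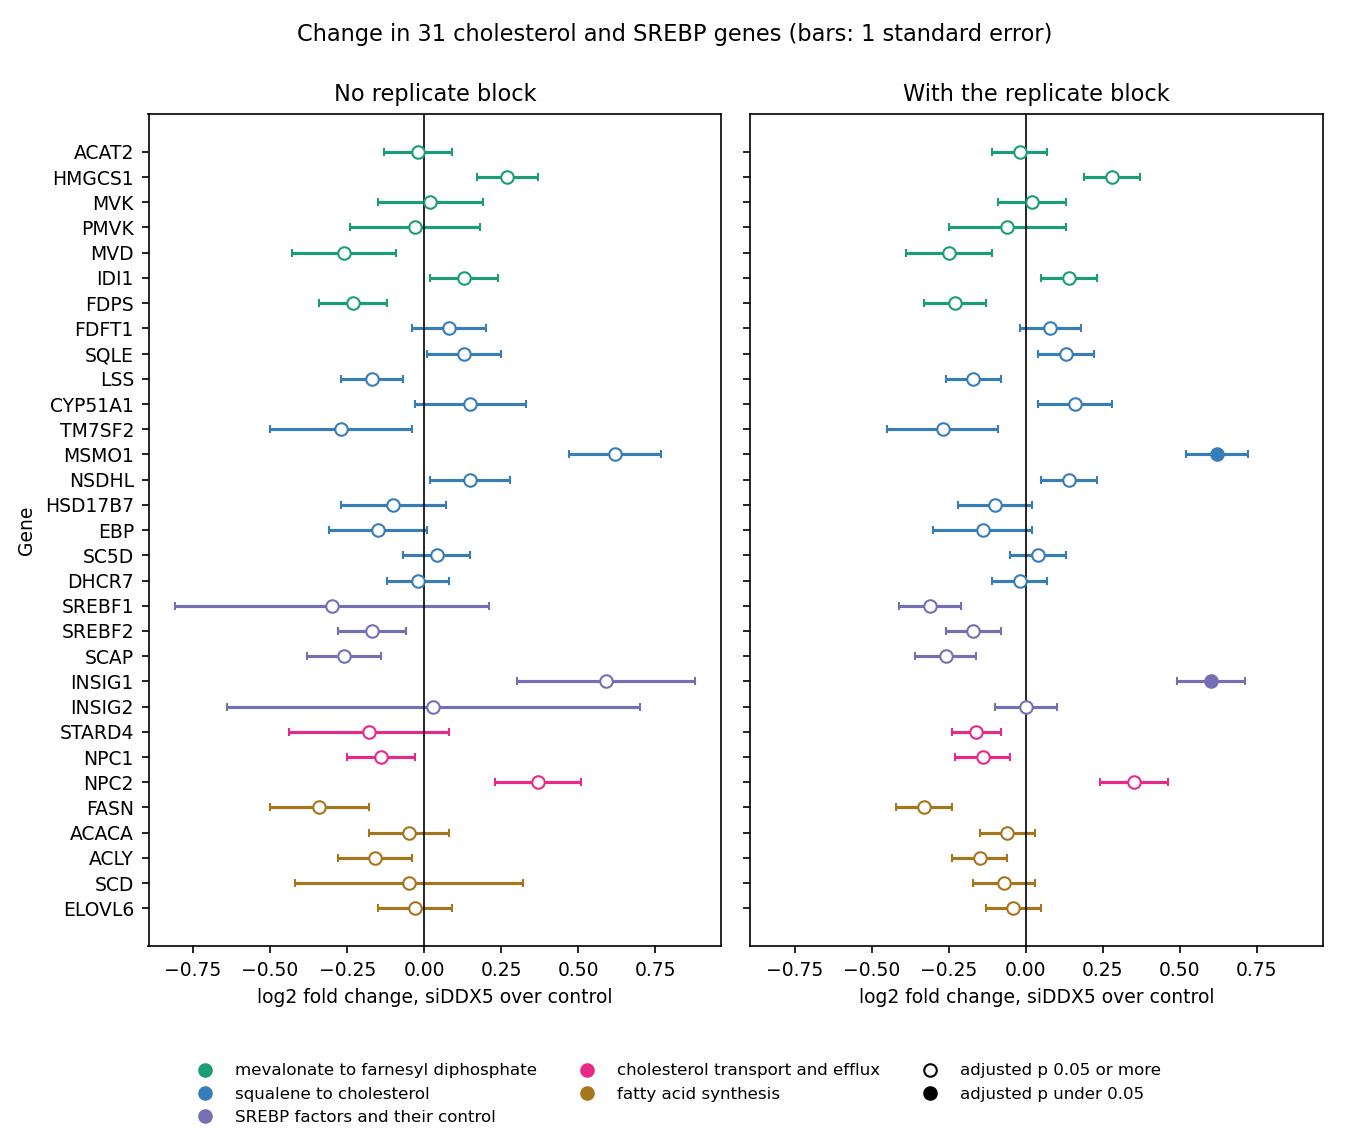
Log2 fold change of the 31 tested genes, siDDX5 over control, without (left) and with (right) the replicate block. Points are edgeR estimates, bars 1 standard error, colours the role of the gene, and filled points an adjusted p under 0.05. MSMO1 at 0.62 and INSIG1 at 0.60 are the filled points on the right, while the bars of SREBF1, INSIG2 and SCD are several times wider on the left than on the right.

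The levels of the genes were compared per transcript length, on the deposited TPM scale, in control cells. NPC2, a lysosomal sterol carrier, had the highest mean with 354 ± 14.5 TPM (SD, n = 3), followed by the desaturase SCD with 241 ± 120 TPM. The ranges of NPC2 (344 to 371 TPM) and SCD (164 to 379.8 TPM) overlapped, because SCD was high in replicate 3 alone. FDPS (167 ± 11.5 TPM), ACLY (161 ± 15.7), HMGCS1 (139 ± 8.86) and IDI1 (129 ± 12.3) came next, and neighbours in that order were separated by less than the sum of their SDs. MSMO1, with 22.2 ± 3.15 TPM, stood in the lower part of the order among MVD (21.1 ± 4.74) and CYP51A1 (19.9 ± 3.36), which it did not exceed beyond their spread. INSIG1 (7.21 ± 2.66 TPM) and the sterol reductase gene TM7SF2 (5.89 ± 0.563) were the lowest of the 31 tested. ABCA1, the efflux pump for cholesterol, was near the limit of detection with 4 to 13 estimated counts per library and was the only gene that failed the filter on low counts.

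**Figure D2:**
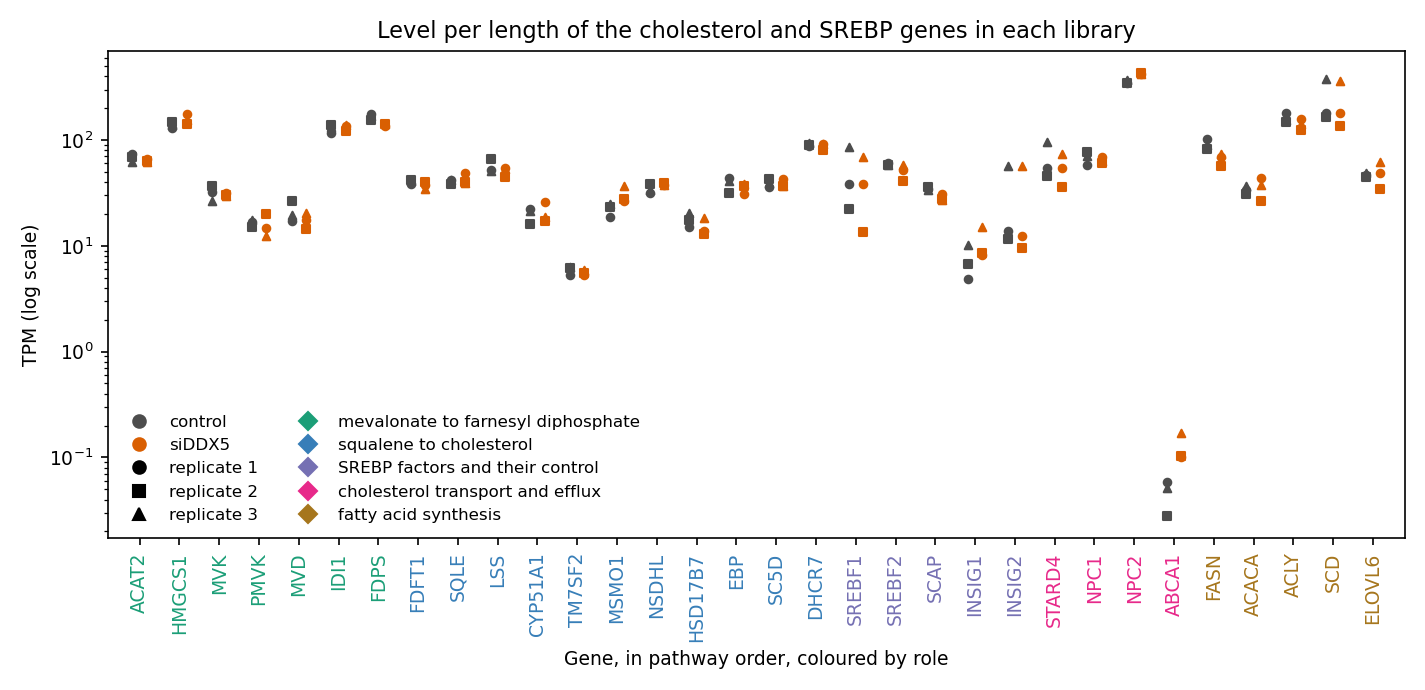
TPM of the 32 genes in each of the 6 libraries, on a log axis, in pathway order, with symbols for replicate number and label colours for role. NPC2 lies at the top, ABCA1 lies far below all others, and the replicate 3 triangles stand above the other symbols of SREBF1, INSIG2 and SCD in both groups.

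The 7 enzymes from acetoacetyl-CoA to farnesyl diphosphate had a median log2 fold change of -0.024, and none was called in either fit. HMGCS1, which makes the precursor of mevalonate (chromosome 5, 43289395 to 43313512), was 154, 177 and 157 CPM in the controls and 207, 195 and 187 CPM in siDDX5 cells. Every siDDX5 library lay above every control library, with the widest gap in the replicate 1 pair. The log2 fold change was 0.27 (SE 0.10), with an edgeR adjusted p of 0.359 and of 0.141 with the block. MVD, the decarboxylase that yields isopentenyl diphosphate, was 12.5, 9.07 and 9.24 CPM in the controls and 8.84, 8.83 and 8.14 CPM in siDDX5 cells. Its groups were separate by a narrow margin, with control replicate 1 alone well above the rest. FDPS, which makes farnesyl diphosphate, was 126, 108 and 119.6 CPM in the controls and 91.7, 108 and 102 CPM in siDDX5 cells, and its replicate 2 pair was nearly level (ratio 0.999). The log2 fold change was -0.26 (SE 0.17) for MVD and -0.23 (SE 0.11) for FDPS, with edgeR adjusted p values of 0.607 and 0.475. Without control replicate 1 the MVD value was -0.08. The thiolase ACAT2, the kinases MVK and PMVK and the isomerase IDI1 had overlapping groups and log2 fold changes from -0.03 to 0.13. IDI1 ranged from 106 to 127 CPM in the controls and from 123 to 133 CPM in siDDX5 cells, and was higher in each pair. ACAT2 ranged from 76.3 to 89.1 CPM over all 6 libraries, MVK from 23.01 to 34.1 CPM and PMVK from 8.58 to 15.0 CPM, with PMVK most spread among the siDDX5 libraries.

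Among the 11 enzymes from squalene to cholesterol the median was 0.042, and MSMO1 had the highest value. MSMO1 encodes a methylsterol monooxygenase that acts with NSDHL and HSD17B7 to strip methyl groups from the sterol ring (ENSG00000052802.12, chromosome 4, 165327623 to 165343160, plus strand). It was 14.1, 16.2 and 18.6 CPM in the controls, in the order of replicates 1, 2 and 3, and 21.7, 26.04 and 27.7 CPM after knockdown. The lowest siDDX5 library was above the highest control library, and replicates 1, 2 and 3 kept the same order in both groups. The means were 16.3 ± 2.22 and 25.1 ± 3.1 CPM (SD, n = 3 each), a 1.54-fold higher level, with ratios of 1.54, 1.6 and 1.49 in the 3 pairs. The log2 fold change of 0.62 had a standard error of 0.15 and an edgeR adjusted p of 0.162 without the block, and of 0.10 and 0.0157 with it. Without the replicate 3 pair the blocked value was 0.65 and the call was lost (adjusted p 0.0653), while without the replicate 1 or 2 pair it passed (0.0223 and 3.81e-04). On the TPM scale the estimate was smaller, 0.43 with a pseudocount of 0.1 (limma adjusted p 0.573).

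The partners of MSMO1 in the same reactions had smaller values and no call in either fit. NSDHL was 34.8, 37.3 and 32.99 CPM in the controls and 35.1, 44.3 and 36.9 CPM in siDDX5 cells, a log2 fold change of 0.15 (SE 0.13) with overlapping groups. HSD17B7 was 10.03, 11.9 and 13.3 CPM against 9.53, 10.8 and 12.7 CPM, a log2 fold change of -0.10 (SE 0.17). Reads of HSD17B7 could be divided with 2 near-identical pseudogenes, which held up to 27.1% as many counts as the gene. No test of MSMO1 against these partners was made. SQLE, the squalene epoxidase, was higher in all 3 pairs but with overlapping groups (0.13, SE 0.12), and LSS, which closes the ring to lanosterol, was lower in all 3 pairs (-0.17, SE 0.10). LSS was 112, 107 and 106 CPM in the controls and 89.6, 100.2 and 100.1 CPM in siDDX5 cells, with 15.6% to 20.8% of its counts on copies outside the primary assembly. The squalene synthase FDFT1, the demethylase CYP51A1, TM7SF2, the isomerase EBP, the desaturase SC5D and the reductase DHCR7 had overlapping groups and log2 fold changes from -0.27 to 0.15. Over all 6 libraries DHCR7 ranged from 127 to 146 CPM, SC5D from 41.02 to 46.8 CPM and FDFT1 from 33.7 to 41.3 CPM. CYP51A1 ranged from 20.8 to 35.9 CPM, EBP from 16.9 to 25.9 CPM and TM7SF2 from 3.21 to 5.88 CPM. For CYP51A1, EBP and TM7SF2 the range within each group was wider than the difference between the group means.

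The 5 genes for the SREBP factors and their control had a median of -0.168, and INSIG1 had the highest value among them. INSIG1, the sterol-dependent anchor of SCAP and itself a known SREBP target (ENSG00000186480.12, chromosome 7, 155297776 to 155310235, plus strand), was 7.12, 9.67 and 14.1 CPM in the controls. The siDDX5 libraries, in the same order, gave 11.1, 14.1 and 21.5 CPM. The groups overlapped, because replicate 3 was the highest and replicate 1 the lowest library in each, yet every siDDX5 library lay above its own pair. The pair ratios were 1.55, 1.46 and 1.53, and the means 10.3 ± 3.51 and 15.5 ± 5.35 CPM (SD, n = 3 each), a 1.51-fold higher level. The unblocked estimate was 0.59 on the log2 scale (SE 0.29, edgeR adjusted p 0.475), and the blocked estimate 0.60 (SE 0.11, adjusted p 0.0312). The unblocked estimate was 0.30 without siDDX5 replicate 3, 0.39 without control replicate 1 and 0.89 without control replicate 3. It kept a blocked value of 0.59 without the replicate 3 pair, where the call was lost (adjusted p 0.256), and passed without the replicate 1 or the replicate 2 pair (0.0376 and 0.00109).

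SCAP, the escort of the SREBPs, was 73.7, 62.8 and 58.8 CPM in the controls and 51.9, 58.1 and 52.6 CPM in siDDX5 cells. The groups were just separate, at 58.8 against 58.1 CPM, and the replicate 1 pair showed the widest gap. The estimate was -0.26 on the log2 scale (SE 0.12; edgeR adjusted p 0.437 unblocked and 0.186 blocked), and -0.16 without control replicate 1. SREBF2 was 183, 149.8 and 166 CPM against 145, 139 and 159.6 CPM, lower in each pair, with a log2 fold change of -0.17 (SE 0.11). SREBF1 (chromosome 17, 17810399 to 17837002, minus strand) was 43.7, 19.3 and 73.9 CPM against 29.8, 16.9 and 64.7 CPM, again lower in each pair. The unblocked log2 fold change of -0.30 had a standard error of 0.51, and the blocked value of -0.31 one of 0.10 (edgeR adjusted p 0.141). The blocked call was made without the replicate 2 pair (-0.36, adjusted p 0.0345). INSIG2, the second anchor, differed little between the groups within any pair (ratios 0.938, 0.991 and 1.05), with a log2 fold change of 0.03 (SE 0.67), and -0.00 (SE 0.10) with the block.

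**Figure D3:**
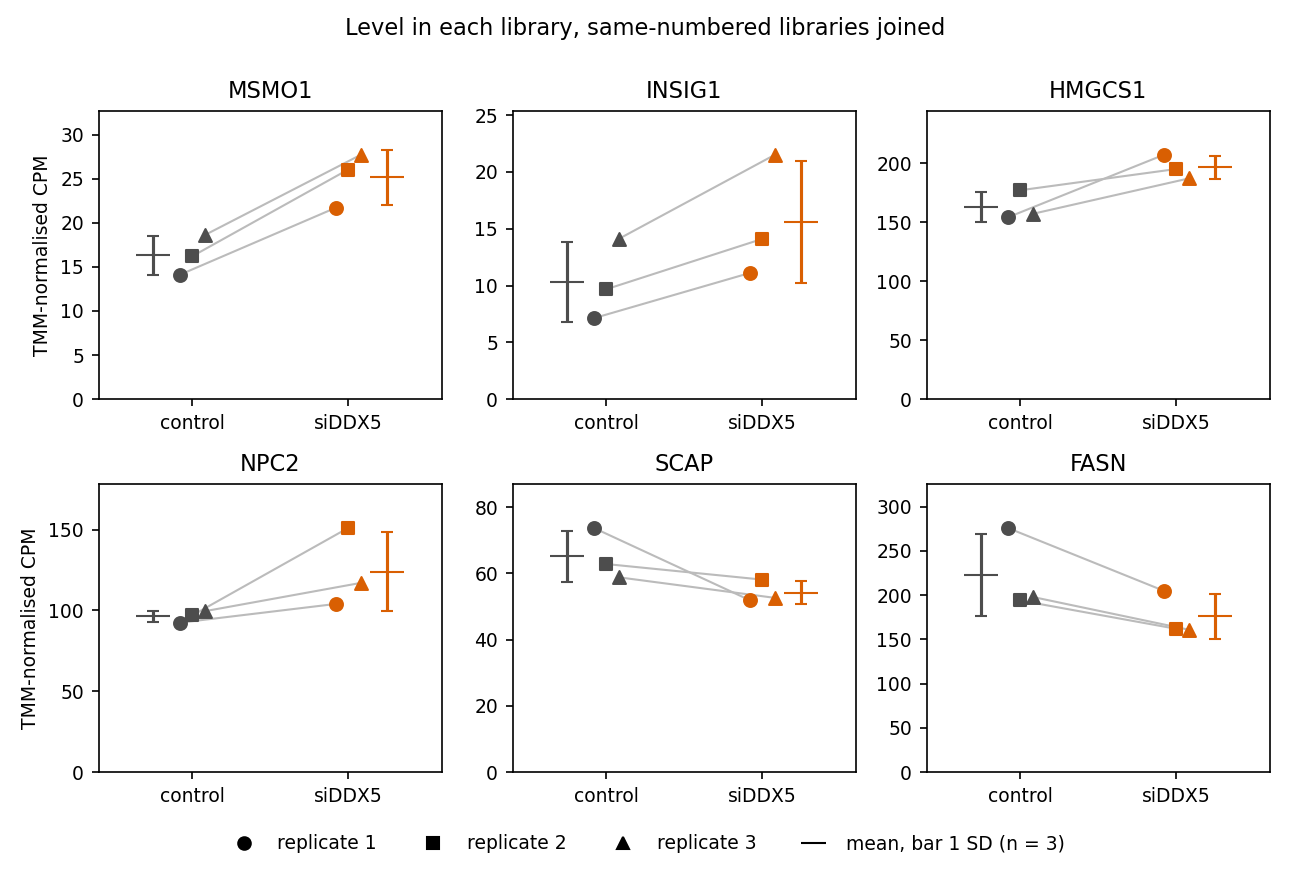
TMM-normalised CPM of 6 genes in each library, from 0, with grey lines joining libraries of the same replicate number and bars at mean ± SD (n = 3). The lines of MSMO1 and INSIG1 run upward and nearly in parallel, those of FASN run downward, and the siDDX5 values of NPC2 are spread by replicate 2 at 151 CPM.

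Of the transport genes, NPC2 and NPC1, which hand cholesterol out of the lysosome, had values of opposite sign and neither was called with all libraries. NPC2 was 92.4, 96.9 and 99.5 CPM in the controls and 104, 151 and 117 CPM in siDDX5 cells. All siDDX5 libraries were above all control libraries, and siDDX5 replicate 2 was far above the other 2. The estimate was 0.37 on the log2 scale (SE 0.14; edgeR adjusted p 0.359 unblocked and 0.113 blocked), and 0.20 without siDDX5 replicate 2. The blocked value passed without the replicate 1 pair (0.44, adjusted p 0.0485) and was 0.21 without the replicate 2 pair (0.322). NPC1 was 87.5, 102 and 108 CPM against 87.1, 89.8 and 91.5 CPM, lower in each pair, with a log2 fold change of -0.14 (SE 0.11). STARD4, a soluble sterol carrier of the cytosol, had a log2 fold change of -0.18 (SE 0.26). ABCA1 was listed at 10, 4 and 8 estimated counts in the controls and 13, 4 and 4 in siDDX5 cells, too few to compare.

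All 5 fatty acid genes had a negative log2 fold change, with a median of -0.055, and none was called in either fit. FASN, the fatty acid synthase (chromosome 17, 82078333 to 82098332), was 276, 194 and 198 CPM in the controls and 205, 162 and 161 CPM in siDDX5 cells. The groups overlapped only through siDDX5 replicate 1, and each pair was lower, with ratios of 0.742, 0.832 and 0.811. The estimate was -0.34 on the log2 scale (SE 0.16; edgeR adjusted p 0.461 unblocked and 0.0783 blocked), and the blocked call was made without the replicate 2 pair (-0.37, adjusted p 0.0467). Without control replicate 1 the unblocked estimate was -0.15. ACLY, which makes cytosolic acetyl-CoA, was 509.9, 397 and 413 CPM against 424, 384 and 373 CPM (-0.16, SE 0.12), lower in each pair. ACACA, the carboxylase that makes malonyl-CoA, and the elongase ELOVL6 had values of -0.05 (SE 0.13) and -0.03 (SE 0.12), which became 0.12 and 0.08 with length-scaled TPM counts. ACACA ranged from 93.9 to 129.5 CPM and ELOVL6 from 46.7 to 58.4 CPM, each with its lowest value in siDDX5 replicate 2, and 7.09% to 16.2% of the ACACA counts lay on copies outside the primary assembly. SCD had -0.05 with a standard error of 0.37.

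The separation of the groups depended on the scale for some genes. On the deposited TPM scale, MSMO1, NPC2, FDPS and SCAP had separate groups as on the CPM scale, and FASN and ABCA1 became separate too. The share of all genes with separate groups was not computed on the TPM scale. ABCA1 had only 4 to 13 estimated counts per library and overlapped in CPM, so its separation in TPM carries little weight. FASN was 102, 81.5 and 90.7 TPM in the controls and 68.8, 57.2 and 73.5 TPM in siDDX5 cells. MSMO1 was 18.7, 23.1 and 24.8 TPM in the controls and 26.3, 27.6 and 36.4 TPM in siDDX5 cells. INSIG1 was 4.84, 6.72 and 10.1 TPM against 8.17, 8.49 and 14.9 TPM, with overlapping groups. Both MSMO1 and INSIG1 were higher in each pair in TPM, but less evenly than in CPM, with the smallest ratio in replicate 2. HMGCS1, MVD and LSS, separate in CPM, overlapped in TPM. For HMGCS1 the TPM values were 130.1, 148 and 138 in the controls and 177, 141 and 154 in siDDX5 cells, where replicate 2 reversed its direction within the pair.

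For several genes of the set the difference between replicate numbers was larger than that between the groups. A test of the replicate term in the blocked fit, added after the values had been seen, called 5 of 31 genes (16.1%), against 3.44% of all genes tested. They were INSIG2, SREBF1, SCD, STARD4 and INSIG1, and none of the 18 enzymes from acetoacetyl-CoA to cholesterol was among them. INSIG2 (chromosome 2, 118088452 to 118110997) was 14.7, 11.1 and 51.9 CPM in the controls and 13.8, 11.05 and 54.7 CPM in siDDX5 cells, each in the order of replicates 1 to 3. Replicate 3 was 4.01 times the mean of the other 2 in control cells and 4.4 times in siDDX5 cells (adjusted p 4.32e-05). SCD (chromosome 10, 100347124 to 100364834) was 609, 555 and 1248 CPM in the controls and 590.2, 498 and 1234 CPM in siDDX5 cells. Its ratios of replicate 3 to the others were 2.14 and 2.27 (adjusted p 0.00106), and the siDDX5 value was slightly below the control value in each pair.

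SREBF1 had ratios of 2.34 and 2.77 (adjusted p 2.54e-04), with replicate 2 the lowest library in each group. STARD4 was 82.4, 66.99 and 132 CPM in the controls and 77.5, 61.5 and 109 CPM in siDDX5 cells, with ratios of 1.76 and 1.57 (adjusted p 0.00506). For INSIG1 the ratios were 1.68 and 1.71 (adjusted p 0.0157). Replicate 3 was thus the highest library of both groups in all 5 genes. Without both replicate 3 libraries, SREBF1 alone of the 31 differed between replicates 1 and 2. Of the 7 muscle markers, the replicate term called 2, both lowest in replicate 3. MYOD1 was 149.8 and 147 CPM there and 179 to 226 CPM elsewhere, and MYF5 was 12.8 and 10.7 CPM against 15.3 to 27.8 CPM. CDH15, not called, was also lowest there (226 and 229.5 CPM, against 249.7 to 317 CPM), while MYH3, not called either, was highest there (10.4 and 10.3 CPM, against 7.26 to 8.33 CPM). MYOG, DES and CHRNA1 did not set both replicate 3 libraries apart. The part of these markers in the result was not tested. The sum of the 7 markers (1118 and 1164 CPM in replicate 3, 1157 to 1571 CPM elsewhere) and the mitochondrial share of counts (4.37% and 4.4%, against 4.09% to 5.4%) did not set replicate 3 apart.

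**Figure D4:**
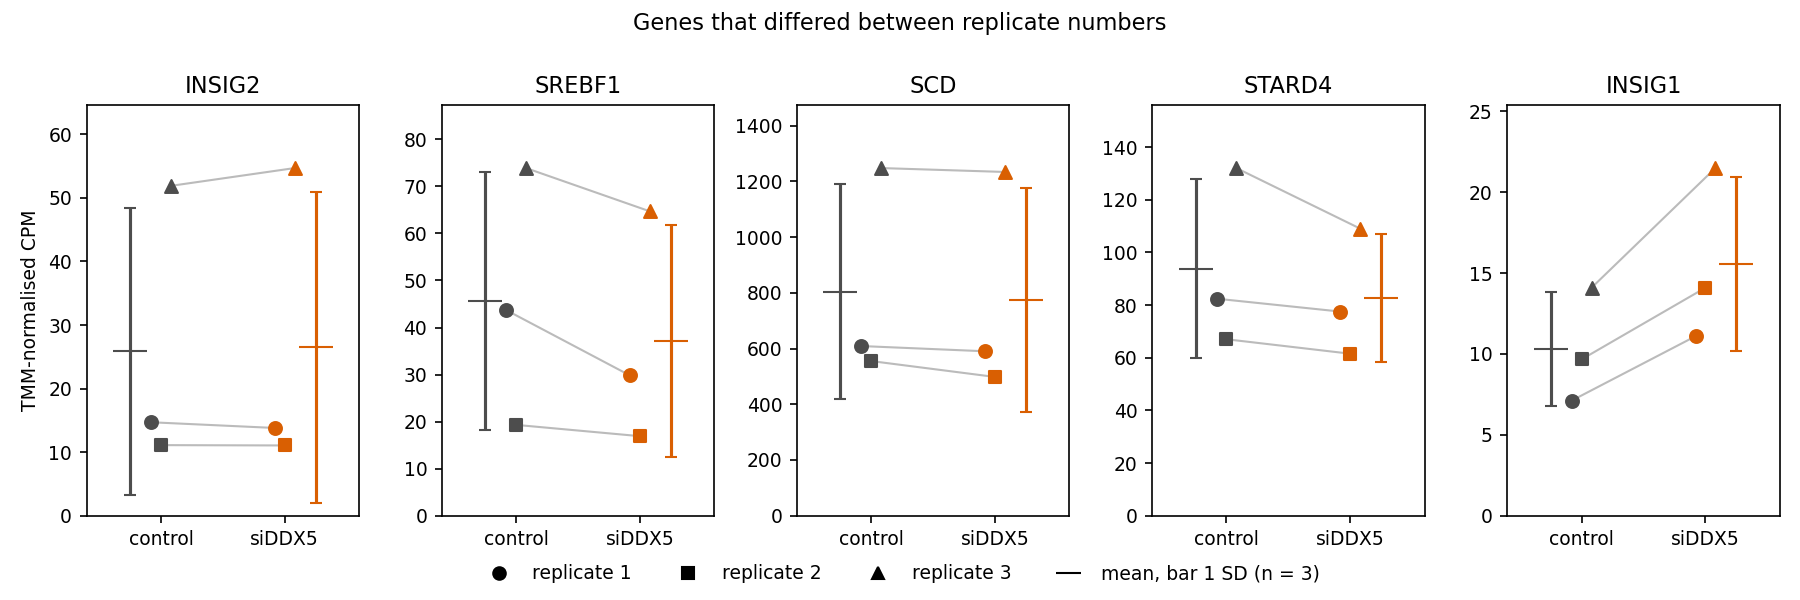
TMM-normalised CPM of the 5 genes called for replicate number, in each library, from 0, with grey lines joining same-numbered libraries and bars at mean ± SD (n = 3). Replicate 3 triangles are highest in both groups, and the lines within pairs are nearly flat for INSIG2 and SCD and rise for INSIG1.

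Transcripts were compared because SREBF1 and others are read from several starts. Of 378 annotated transcripts of the set in the tables, 174 passed the filter and 0 were called by edgeR, without or with the block, as for all 61174 transcripts tested (0.0% called). At an unadjusted p under 0.05 there were 11 of the 174 (6.32%), against 7.08% of all transcripts. DESeq2 called 1, MSMO1's main transcript ENST00000261507.11 (adjusted p 0.0263). It held 64.0%, 70.6% and 76.1% of the gene's counts in the controls and 90.2%, 85.5% and 67.4% in siDDX5 cells, so the groups overlapped in share. INSIG1's main transcript ENST00000340368.9 held 68.2% to 75.7% in the controls and 73.7% to 87.7% in siDDX5 cells.

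Relative usage of transcripts could be tested in 29 of the 32 genes, and 0 were called, against 1.59% of 10699 genes. The lowest adjusted p was that of FDFT1 (0.796 from diffSpliceDGE, 0.679 with the block), and 1 gene had an unadjusted p under 0.05. The SREBF1 transcripts from the most upstream start held 61.7%, 46.2% and 45.2% of its counts in the controls and 55.2%, 51.2% and 52.2% in siDDX5 cells. These shares overlapped, and they did not set replicate 3 apart as the gene's level did. The main SCAP transcript, ENST00000265565.10, held 65.1%, 61.8% and 63.3% of the gene's counts in the controls and 53.7%, 48.1% and 51.7% in siDDX5 cells. These ranges did not overlap, but the usage test gave an adjusted p of 1.0 for SCAP, and the error of dividing reads among transcripts is not in either value. SCAP was not alone in this. Transcripts of other genes of the set also had separate shares, such as the main one of IDI1 (89.6% to 90.7% in the controls, 92.7% to 92.9% in siDDX5 cells). How often shares separate over all transcripts was not computed.

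Other genes of the pathway, 58 in 5 lists, were examined as a setting for the set, and 57 passed the filter. None was called by edgeR without the block, against 0.164% of all genes tested. DESeq2 called 3 (NUS1, RXRA and GGPS1), where 2.73% of all genes were called. An unadjusted edgeR p under 0.05 was found in 8 (14.0%, background 11.4%), and 11 had separate groups (19.3%, background 18.0%). The median log2 fold change of the 57 was 0.046, against -0.002 over all genes tested. With the block 1 was called higher and 1 lower (3.51% of the 57, background 2.59%). NUS1, a subunit of the enzyme that makes dolichol precursors from farnesyl diphosphate, was 91.7, 88.5 and 94.3 CPM in the controls and 132, 153 and 130.2 CPM in siDDX5 cells. All siDDX5 libraries were far above all control libraries (log2 fold change 0.60, SE 0.11; edgeR adjusted p 0.0681 unblocked and 0.0144 blocked). RXRA, the partner receptor of the oxysterol sensors, was 120, 95.9 and 106 CPM against 77.3, 79.5 and 73.05 CPM, again without overlap. The estimate was -0.49 on the log2 scale (SE 0.11; edgeR adjusted p 0.144 unblocked and 0.0361 blocked), and the blocked call was lost without the replicate 3 pair (0.208). By list, called genes numbered 1 of 11 in the isoprenoid branch and 1 of 14 in sterol transport, esterification and LXR, and 0 of 4, 0 of 10 and 0 of 18 in further sterol synthesis, SREBP processing and sterol sensing, and other fatty acid and lipid synthesis. The replicate term called 3 of the 57 (5.26%, background 3.44%), the ligase genes RNF139 and RNF145 and the acyl-CoA synthetase gene ACSL3, named here because their count is small.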

How the data were processed

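Messenger RNA was sequenced from 3 control and 3 siDDX5 libraries made with a first-strand kit, per the labels' protocols. The submitters' processing notes name bcl2fastq 2.20, FastQC 0.11.8, cutadapt 1.11, kallisto 0.46.0 and GRCh38; parameters and strand setting are not given in the sources used here. The authors deposited estimated counts, not normalised, and TPM values, scaled for effective length, for 188753 transcripts per library; 90.3% to 91.1% of counts above 0 were not whole (tolerance 0.001). Estimated counts were summed per gene with GENCODE release 29 (99.59% to 99.63% of counts joined; 2745 transcripts left out) and rounded. Coordinates are those annotations' GRCh38 positions, counted from 1.

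Under R 4.3.3 and edgeR 4.0.16, filterByExpr removed low genes, TMM set the scale, and glmQLFit with glmQLFTest compared the groups, with no further term. Adjusted p values are Benjamini-Hochberg over all genes tested, and a gene was called under 0.05. The standard error is the log2 fold change divided by the square root of F. Transcripts were tested alike, and usage with diffSpliceDGE and the Simes method. Deviations of same-numbered libraries from their group means correlated across genes (0.21, 0.27 and 0.58 for replicates 1, 2 and 3). Deviations cancel out within a group, so a shift shared by both replicate 3 libraries would also raise the values of replicates 1 and 2. Libraries of different numbers were not compared in this way. The pairing, and with it every blocked value and pair count, therefore rests on the numbers in the titles. Blocked values are given where they change a call. The biological coefficient of variation was 15.7% without and 10.2% with the block. The edgeR fits without and with the block, DESeq2, limma-trend, the replicate term and the usage test were tried on simulated data. The joining of transcripts to genes, the remaining alternative settings and the motif counts were not.

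The 32 genes and the other lists were chosen with earlier results of these data known. All 32 are described by role; other genes were named if called in either fit. Alternatives were DESeq2 1.42.0 size factors and Wald test, no filter, a mean of at least 50 counts, length-scaled TPM, limma 3.58.1 trend on log2(TPM + 0.1) and log2(TPM + 1), the block, and leaving out libraries; primary-assembly transcripts only, leaving out replicate 3 or a pair, and the replicate term were added after the data had been seen.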

Additional observations from a re-analysis of the deposited data

How the results depend on the processing

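Where a value changed, the cause was not tested. Genes called in the whole series, 25 as reported, were 303 by DESeq2, 136 unfiltered, 2 with length-scaled TPM counts, 1 with either limma-trend setting, 4 without both replicate 3 libraries, 394 with the replicate block, and 954, 1241 and 211 with the block but without the replicate 1, 2 or 3 pair. Leaving out 1 library gave 0 to 15; the count was 0 without control replicate 1 (1245 genes at unadjusted p under 0.05) and 0 without siDDX5 replicate 1 (2042 such genes). Cholesterol and SREBP genes called, 0 as reported, were 1 with DESeq2 (MSMO1), 2 with the block, 3 and 4 with the block but without the replicate 1 or 2 pair, and 0 without the replicate 3 pair or any single library. With the block no other gene of the set changed its call. Their median, -0.032, was -0.089 and -0.088 with limma-trend at pseudocounts of 0.1 and 1, and -0.079 to 0.004 without 1 library. Genes called for replicate number, 523, were 189 with length-scaled TPM counts, 319 with primary-assembly transcripts only, 183 without both replicate 3 libraries and 401 to 2717 without 1 library; for the set, 5 became 1 without both replicate 3 libraries and 4 to 9 without 1 library. Transcripts called, 0, were 725 with DESeq2, 1 of them in the set. Genes called for usage, 170, were 41 at a mean of at least 50 counts and 222 to 453 without 1 library; for the set, 0 became 0 to 1 (DHCR7 without control replicate 3, STARD4 without siDDX5 replicate 1, FDFT1 without siDDX5 replicate 2).

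DDX5 was no longer called with length-scaled TPM counts (-1.37) and limma-trend (-1.44 with either pseudocount) or without control replicate 1 (adjusted p 0.0955), siDDX5 replicate 1 (0.0653) or siDDX5 replicate 2 (0.0531), and ranged from -1.54 to -1.30 without 1 library. Over 19 settings 16 of the 31 genes kept their sign. Signs reversed with length-scaled TPM counts (MVK -0.02, PMVK 0.01, FDFT1 -0.05, DHCR7 0.01, INSIG2 -0.00, ACACA 0.12, ELOVL6 0.08), with limma-trend at both pseudocounts (MVK -0.06, FDFT1 -0.11, SC5D -0.02, INSIG2 -0.14 and -0.13, ACACA 0.06, ELOVL6 0.00), with the block (INSIG2 -0.00), without both replicate 3 libraries (MVK -0.00, PMVK 0.16, INSIG2 -0.06), and with the block without the replicate 1 pair (ACAT2 0.05, PMVK 0.05, EBP 0.10, SC5D -0.03, DHCR7 0.07), the replicate 2 pair (MVK -0.09, ACACA 0.03, ELOVL6 0.05) or the replicate 3 pair (MVK -0.01, PMVK 0.14, INSIG2 -0.05). Without 1 library the ranges that crossed 0 were ACAT2 -0.08 to 0.03, MVK -0.12 to 0.16, PMVK -0.30 to 0.14, FDFT1 -0.00 to 0.13, CYP51A1 0.00 to 0.28, HSD17B7 -0.20 to 0.00, DHCR7 -0.05 to 0.04, SREBF1 -0.96 to 0.23, INSIG2 -1.05 to 1.03, STARD4 -0.42 to 0.14, ACACA -0.17 to 0.06, SCD -0.55 to 0.41 and ELOVL6 -0.08 to 0.07. Depth limits ABCA1, with at most 13 counts.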

Other observations

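The genes of the oxysterol receptors were picked out here after their values had been seen. NR1H3, which encodes LXR alpha, was 2.29, 2.27 and 3.09 CPM in the controls and 3.75, 4.33 and 4.46 CPM in siDDX5 cells (log2 fold change 0.71, SE 0.22, edgeR adjusted p 0.265, 0.0812 with the block). NR1H2, which encodes LXR beta, was 30.3, 29.9 and 28.6 CPM against 30.96, 39.9 and 36.2 CPM (0.27, SE 0.13, adjusted p 0.461). Both had separate groups in CPM, higher in siDDX5 cells, whereas their partner RXRA was lower. Separate groups in either direction were found in 18.0% of all genes tested. NR1H2 separated narrowly (30.3 against 30.96 CPM) and overlapped in TPM (21.1 to 25.3 in the controls, 24.2 to 27.1 in siDDX5 cells). Without the block edgeR called none of the 3, while DESeq2 called RXRA (adjusted p 0.0168). Of the efflux pumps that LXR is known to induce, ABCA1 was at 0.185 to 0.642 CPM and ABCG1 at 0.055 to 0.555 CPM, both below the filter in these cells.

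GGPS1, whose product extends farnesyl diphosphate to geranylgeranyl diphosphate, was likewise named after its values were seen. It was 19.7, 15.8 and 21.8 CPM in the controls and 25.8, 33.4 and 29.8 CPM in siDDX5 cells, without overlap (0.63, SE 0.16, adjusted p 0.168 from edgeR unblocked, 0.0534 blocked). DESeq2 called it (adjusted p 0.0153).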
